A study of Rattus with 6 samples.

Results

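The 29 genes described here encode enzymes of cholesterol synthesis, the regulators that set their transcription, and proteins that move, store or export cholesterol. They were chosen by symbol from a fixed list, drawn up with earlier results of these data known, and all 29 were found among the 30211 genes of the deposited count table and passed its filter on low counts. RNA was sequenced from cultured rat BMSC (bone marrow mesenchymal stem cells, genotype WT in the labels), the stromal cells from which bone, cartilage and fat cells can arise. There were 3 libraries from cells kept for 4 days with 100 uM dexamethasone, a synthetic glucocorticoid, and 3 from control cells cultured for the same time without it. Groups were taken from sample titles and descriptions, since the labels' treatment tag is DEX throughout. The sources used here do not give strain, age, vehicle or whether replicates were separate cultures or animals, so the spread behind each p-value may be technical.

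Cells make cholesterol from acetyl-CoA through mevalonate, squalene and lanosterol. When membrane sterol is low, the escort protein Scap carries the SREBP transcription factors from the endoplasmic reticulum to be cleaved, and they switch on the synthesis enzymes. Insig proteins hold Scap back when sterol is plentiful, and oxysterols activate the liver X receptors (LXR), whose known targets include the exporters Abca1 and Abcg1. In marrow stroma, sterols also feed membranes of dividing cells and the lipid droplets of fat-forming cells.

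Library totals ranged from 34835072 to 41676315 counts. The known glucocorticoid receptor targets Fkbp5, Tsc22d3 and Per1, read to check the labels, were higher in all 3 dexamethasone libraries than in any control. All 10 listed markers of marrow stroma passed the filter on low counts, and 3 rose, 6 fell and 1 was not called at an adjusted p below 0.05. They summed to 2744 to 2790 CPM with dexamethasone and 4066 to 4084 CPM in the controls. Prrx1, a mesenchymal transcription factor, averaged 75.6 CPM with dexamethasone and 727 CPM in the controls, and Pdgfrb 137 and 616 CPM, while Pdgfra averaged 965 CPM with dexamethasone and 598 CPM in the controls. Of 14 macrophage markers, 7 passed that filter, Adgre1, Cd163, Marco and Msr1 had no count in any library, and the list summed to 8.91 to 9.78 CPM with dexamethasone and 13.1 to 14.0 CPM in the controls. Cd14, which passed the filter but was not called, made up most of that sum, at 7.65 CPM with dexamethasone and 7.27 CPM in the controls. Cd74, Cd53, Lyz2 and Cd68 fell, to 0.139, 0.127, 0.133 and 0.509 CPM with dexamethasone, against 1.74, 1.40, 0.467 and 1.21 CPM in the controls. Of 7 adipocyte markers, 3 passed the filter, and the list summed to 7.68 to 11.1 CPM with dexamethasone and 4.43 to 5.07 CPM in the controls. Cebpa rose (7.75 CPM with dexamethasone, 1.73 CPM in the controls), Lpl fell (0.268 and 1.62 CPM), and Pparg was not called (1.32 and 1.22 CPM). None of the 4 endothelial markers in the table passed the filter. CPM is the count scaled to a common library size, here after TMM scaling. In bulk RNA, fewer cells of a type and less RNA per cell cannot be told apart.

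Dexamethasone libraries held less RNA for the regulators Srebf1, Srebf2 and Insig1, for the sterol enzyme Msmo1 and for the transporters Npc1 and Abcg1. They held more for Stard4, Soat1, Abca1 and Nr1h3, which encodes LXR alpha. Of the 29 genes, 8 rose, 13 fell and 8 did not pass, so 21 (72.4%) were called at an adjusted p below 0.05 (edgeR's quasi-likelihood test, Benjamini-Hochberg over all 14111 genes tested). The same threshold called 64.0% of all genes tested, 32.3% higher and 31.7% lower, so a share near this size is not a result about the cholesterol genes. The 2 groups of libraries did not overlap for 24 of the 29 genes, against 66.9% of all genes tested. The changes were moderate. Only Msmo1 and Srebf1 were called at 2-fold or more (6.90%, against 15.6% of all genes tested), and 7 were called at 1.5-fold or more (24.1%, against 27.4%). The median log2 fold change of the 29 was -0.19, against 0.00 over all genes tested, and the median size regardless of direction was 0.39 against 0.31.

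**Figure D1:**
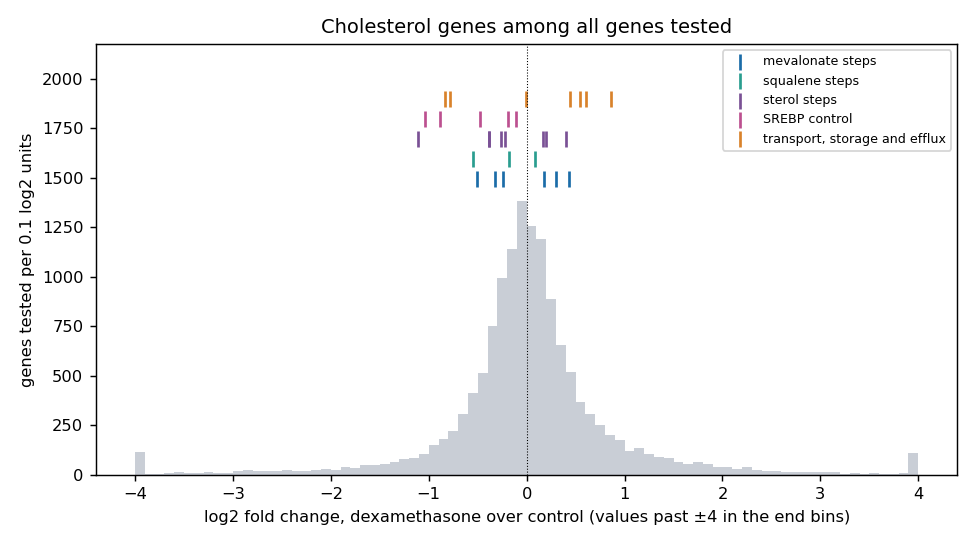
Log2 fold changes, dexamethasone over control, of all 14111 genes tested (grey, in bins 0.1 wide) with the 29 cholesterol genes as ticks in 5 rows by role. The ticks span -1.11 to 0.86, within the central part of the distribution. The 5 genes of SREBP control lie below 0, with Insig2 and Scap not called.

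The listed enzymes of the first steps, from the making of HMG-CoA to farnesyl diphosphate, moved both ways by small amounts. Acat2, a thiolase of the wider list below, rose by more (log2 0.66 ± 0.083). It averaged 29.4 CPM with dexamethasone and 18.6 CPM in the controls. Of 6 mevalonate-step enzymes, 3 rose and 3 fell, so all were called, against 64.0% of all genes tested. Hmgcs1, the cytosolic synthase that makes HMG-CoA, had 27.8, 27.5 and 27.2 CPM with dexamethasone, against 33.4, 30.7 and 33.3 CPM in the controls. Mvd, the decarboxylase that yields isopentenyl diphosphate, had 18.5, 18.7 and 16.1 CPM with dexamethasone, against 26.2, 25.4 and 24.1 CPM in the controls. Fdps, which joins isoprenoid units into farnesyl diphosphate, had 36.7, 34.9 and 34.4 CPM with dexamethasone, against 42.6, 44.6 and 45.8 CPM in the controls. Each dexamethasone library was below each control library for these 3 genes, with log2 fold changes of -0.24 ± 0.041, -0.51 ± 0.079 and -0.33 ± 0.042 (SE). The intervening kinases and the isomerase went the other way. Mvk, mevalonate kinase, had 11.7, 12.4 and 11.3 CPM with dexamethasone, against 7.75, 8.72 and 9.72 CPM in the controls. Pmvk, the next kinase, had 32.3, 34.2 and 30.5 CPM with dexamethasone, against 28.7, 27.5 and 29.6 CPM in the controls. Idi1, isopentenyl diphosphate isomerase, had 15.1, 17.2 and 16.5 CPM with dexamethasone, against 13.7, 13.4 and 12.6 CPM in the controls. All dexamethasone values of these 3 genes lay above all control values, with log2 fold changes of 0.43 ± 0.10, 0.18 ± 0.057 and 0.30 ± 0.067. The adjusted p of the 6 enzymes was between 6.9e-09 and 0.00584 (edgeR's quasi-likelihood test). RefSeq's rat gene table (GRCr8) names 5 pseudogene copies of Fdps and 1 of Idi1, none of them under those names in the count table. The sources used here do not say how reads shared with such copies were counted.

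Of the 3 enzymes from farnesyl diphosphate to lanosterol, only the first was called (33.3%, against 64.0% of all genes tested). Fdft1, squalene synthase, which commits the pathway to sterols, had 33.4, 34.5 and 32.3 CPM with dexamethasone, against 47.8, 49.5 and 49.6 CPM in the controls. It fell 1.47-fold (log2 -0.55 ± 0.032, adjusted p = 7.8e-14, edgeR's quasi-likelihood test). Sqle, squalene epoxidase, had 12.2, 10.4 and 11.2 CPM with dexamethasone, against 11.6, 13.4 and 13.5 CPM in the controls. The groups overlapped, and Sqle did not pass (log2 -0.19, 95% interval -0.45 to 0.08 from the spread between replicates, adjusted p = 0.0547, edgeR's quasi-likelihood test). It did pass without dexamethasone replicate 1 (adjusted p = 0.025) or control replicate 1 (0.0153). Lss, lanosterol synthase, had 19.5, 19.6 and 20.2 CPM with dexamethasone, against 19.0, 17.7 and 19.3 CPM in the controls, and did not pass (log2 0.08, interval -0.04 to 0.20).

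Among the 8 enzymes that turn lanosterol into cholesterol, 4 fell, 1 rose and 3 did not pass. The share called was 62.5%, against 64.0% of all genes tested. Msmo1, a methylsterol monooxygenase that acts after Cyp51 in stripping methyl groups from the sterol ring (chromosome 16, 26859397 to 26875973), had 28.5, 27.6 and 25.5 CPM with dexamethasone, against 61.7, 58.6 and 56.4 CPM in the controls. This was the largest change of the 29 genes in either direction, 2.17-fold lower (log2 -1.11 ± 0.061, adjusted p = 1.5e-23, edgeR's quasi-likelihood test), and 6.24% of all genes tested had a lower log2 fold change. Cyp51, lanosterol demethylase, had 40.8, 40.4 and 43.1 CPM with dexamethasone, against 56.8, 54.8 and 51.1 CPM in the controls. The groups did not overlap, and Cyp51 fell by 0.39 on the log2 scale, although RefSeq names 1 pseudogene copy of it. Nsdhl and Hsd17b7, which act with Msmo1 in the same demethylation, had log2 fold changes of -0.22 ± 0.11 and -0.39 ± 0.13 and adjusted p of 0.0189 and 0.0177. The groups overlapped for Nsdhl, whose interval was -0.53 to 0.08, and RefSeq names 1 pseudogene copy of it. Both calls depended on single libraries. Nsdhl was not called without dexamethasone replicate 2 (adjusted p = 0.0808) or 3 (0.0746) or control replicate 1 (0.137) or 3 (0.0769), nor with library size alone as the scaling (0.0548). Hsd17b7 was not called without dexamethasone replicate 3 (0.0894) or control replicate 3 (0.115). Its exons overlap LOC100366054 on the other strand over 513 bases. LOC100366054 averaged 1.71 CPM with dexamethasone and 2.58 CPM in the controls, and Hsd17b7 3.29 and 4.28 CPM. The part of shared reads in the fall of Hsd17b7 was not tested.

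The remaining sterol enzymes were called higher in 1 case and not called in 3. Sc5d, the sterol desaturase, had 22.4, 22.0 and 21.1 CPM with dexamethasone, against 21.0, 19.8 and 17.7 CPM in the controls. It was called higher (log2 0.17 ± 0.077, interval -0.05 to 0.38, adjusted p = 0.0289, edgeR's quasi-likelihood test), but not by DESeq2 (0.0576) and not without dexamethasone replicate 1 (0.0772) or 2 (0.0559) or control replicate 3 (0.224). Ebp, the sterol isomerase, had 5.66, 5.62 and 5.99 CPM with dexamethasone, against 4.51, 5.25 and 5.25 CPM in the controls, and did not pass (log2 0.20, interval -0.01 to 0.42). Tm7sf2 and Dhcr7, sterol reductases, were the least abundant of the 29 per kilobase. Tm7sf2 had 1.40, 1.36 and 1.23 CPM with dexamethasone, against 1.45, 1.47 and 1.85 CPM in the controls. Its exons overlap Vps51 on the same strand over 469 bases, and Vps51 averaged 15.4 CPM with dexamethasone and 15.9 CPM in the controls. Dhcr7 rested on 78 counts over the dexamethasone libraries and 59 over the controls. At that depth its log2 fold change of 0.40 had an interval of -0.73 to 1.54, which covers changes in both directions, so no difference was detectable.

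Summed over the 17 synthesis enzymes, the level was 319 ± 6.23 CPM with dexamethasone and 391 ± 4.47 CPM in the controls (SD, n = 3 each), a ratio of 0.816. The sum was 312 to 323 CPM in the dexamethasone libraries and 388 to 397 CPM in the controls. The ratio was 0.924 for the mevalonate steps, 0.801 for the squalene steps and 0.719 for the sterol steps, and Msmo1 made up most of the fall in the last group. By gene, 4 of the 17 rose, 8 fell and 5 did not pass (70.6% called, against 64.0% of all genes tested).

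**Figure D2:**
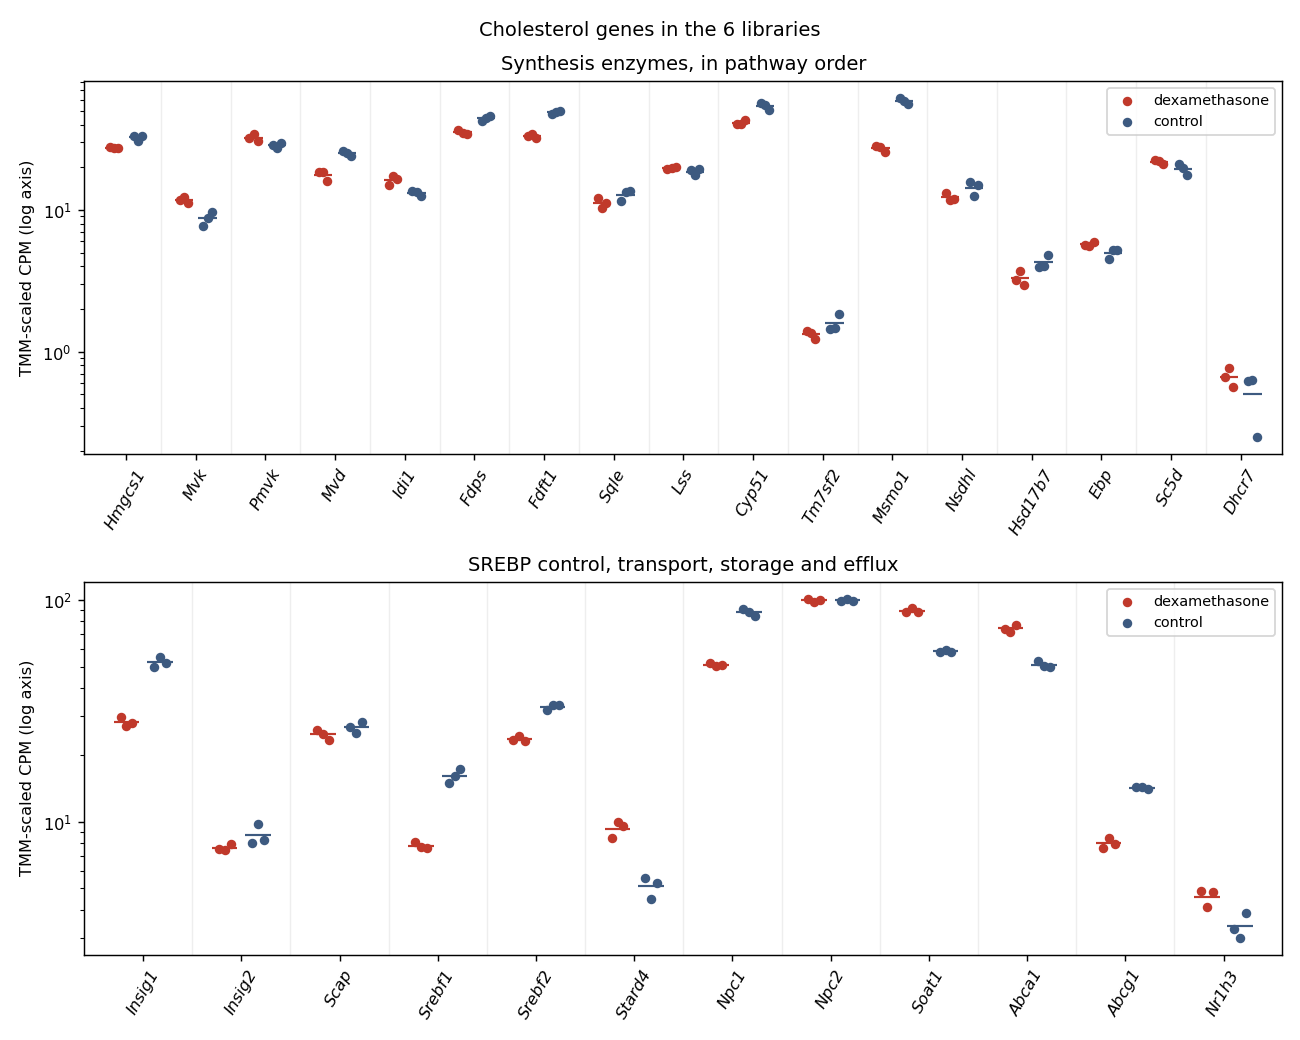
TMM-scaled CPM on a log axis for each of the 29 genes in 3 dexamethasone (red, left) and 3 control libraries (blue, right), with short lines at the group means. Points of Msmo1, Insig1, Srebf1, Npc1 and Abcg1 sit clearly lower with dexamethasone, those of Stard4, Soat1 and Abca1 clearly higher, and Npc2 is level near 100 CPM in both groups.

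All 5 genes of SREBP control had negative log2 fold changes, and 3 of them fell, while Insig2 and Scap were not called. The median over all genes tested was 0.00, so a negative sign alone was common. The share called was 60%, against 64.0% of all genes tested in either direction and 31.7% lower. Srebf1, which encodes SREBP-1, the family member best known for fatty acid synthesis genes (chromosome 10, 46570996 to 46593009), had 8.10, 7.69 and 7.56 CPM with dexamethasone, against 14.9, 16.0 and 17.2 CPM in the controls. It was 2.06-fold lower (log2 -1.04 ± 0.067, adjusted p = 1.2e-14, edgeR's quasi-likelihood test). Its exons share 1176 bases with Rai1 on the other strand, which stood at 53.3 CPM with dexamethasone and 52.5 CPM in the controls. The sources used here do not say whether counting used strand, so reads of the shared bases cannot be assigned. Srebf2, which encodes SREBP-2, the main activator of the cholesterol enzymes, had 23.4, 24.3 and 23.2 CPM with dexamethasone, against 31.7, 33.6 and 33.5 CPM in the controls, a log2 fold change of -0.48 ± 0.034.

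Insig1, itself a known SREBP target (chromosome 4, 342302 to 350515), had 29.7, 27.1 and 28.0 CPM with dexamethasone, against 49.6, 55.3 and 52.1 CPM in the controls. It was 1.85-fold lower (log2 -0.89 ± 0.061, adjusted p = 1.1e-19, edgeR's quasi-likelihood test). Insig2, its paralogue, had 7.49, 7.46 and 7.88 CPM with dexamethasone, against 7.99, 9.73 and 8.30 CPM in the controls. The groups did not overlap, but Insig2 did not pass (log2 -0.19, interval -0.44 to 0.06). Scap had 26.0, 24.8 and 23.3 CPM with dexamethasone, against 26.8, 25.0 and 28.1 CPM in the controls, with overlapping groups and a log2 fold change of -0.11 (interval -0.29 to 0.08) that passed only without control replicate 2 (adjusted p = 0.0465).

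Transport and storage genes moved in both directions and held some of the more abundant of the 29 RNAs. Stard4, a soluble carrier that moves cholesterol between membranes (chromosome 18, 25984638 to 25997555), had 8.39, 9.93 and 9.58 CPM with dexamethasone, against 5.55, 4.49 and 5.27 CPM in the controls. It was the largest rise of the 29, at 1.82-fold (log2 0.86 ± 0.12, adjusted p = 2.8e-09, edgeR's quasi-likelihood test). Soat1, the acyltransferase that esterifies cholesterol for storage in droplets (chromosome 13, 74035080 to 74077783), had 87.8, 91.4 and 88.3 CPM with dexamethasone, against 58.3, 59.1 and 58.3 CPM in the controls. It rose 1.52-fold (log2 0.61 ± 0.019, adjusted p = 1.4e-18, edgeR's quasi-likelihood test).

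Npc1 and Npc2, which hand cholesterol out of late endosomes and lysosomes as partners, did not move alike. Npc1, the membrane protein (chromosome 18, 3616878 to 3662683), had 52.0, 50.3 and 50.7 CPM with dexamethasone, against 90.9, 88.4 and 84.1 CPM in the controls. It was 1.72-fold lower (log2 -0.78 ± 0.036, adjusted p = 1.1e-21, edgeR's quasi-likelihood test). Its exons overlap AABR07031184.2 on the same strand over 348 bases and Rmc1 on the other strand over 278. These averaged 3.84 and 34.5 CPM with dexamethasone, against 5.81 and 44.1 CPM in the controls. Npc2, the soluble partner, had 100.3, 97.5 and 100.0 CPM with dexamethasone, against 99.2, 101.1 and 98.8 CPM in the controls. The groups overlapped, and the log2 fold change of -0.01 had an interval of -0.05 to 0.04.

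The exporters Abca1 and Abcg1 went in opposite directions. Abca1, which loads cholesterol onto lipid-poor apolipoprotein (chromosome 5, 69857771 to 69983015), had 73.7, 71.7 and 77.4 CPM with dexamethasone, against 53.1, 50.3 and 49.7 CPM in the controls. It rose 1.46-fold (log2 0.54 ± 0.043, adjusted p = 1.7e-15, edgeR's quasi-likelihood test). Abcg1, which exports to mature lipoprotein particles (chromosome 20, 9743269 to 9840489), had 7.58, 8.45 and 7.96 CPM with dexamethasone, against 14.3, 14.2 and 14.0 CPM in the controls. It was 1.78-fold lower (log2 -0.83 ± 0.046, adjusted p = 1.2e-11). Nr1h3, which encodes LXR alpha, had 4.86, 4.11 and 4.80 CPM with dexamethasone, against 3.29, 2.99 and 3.87 CPM in the controls. It rose by 0.44 on the log2 scale (adjusted p = 0.00549, edgeR's quasi-likelihood test). Nr1h2, which encodes LXR beta and is in the wider list below, averaged 34.5 CPM with dexamethasone and 34.3 CPM in the controls. It was not called (log2 0.006, adjusted p = 0.93, same test). Macrophages carry high levels of both exporters, and of the 7 macrophage markers tested 4 fell and 3 did not pass, at the levels given above. Their part in these values was not tested.

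**Figure D3:**
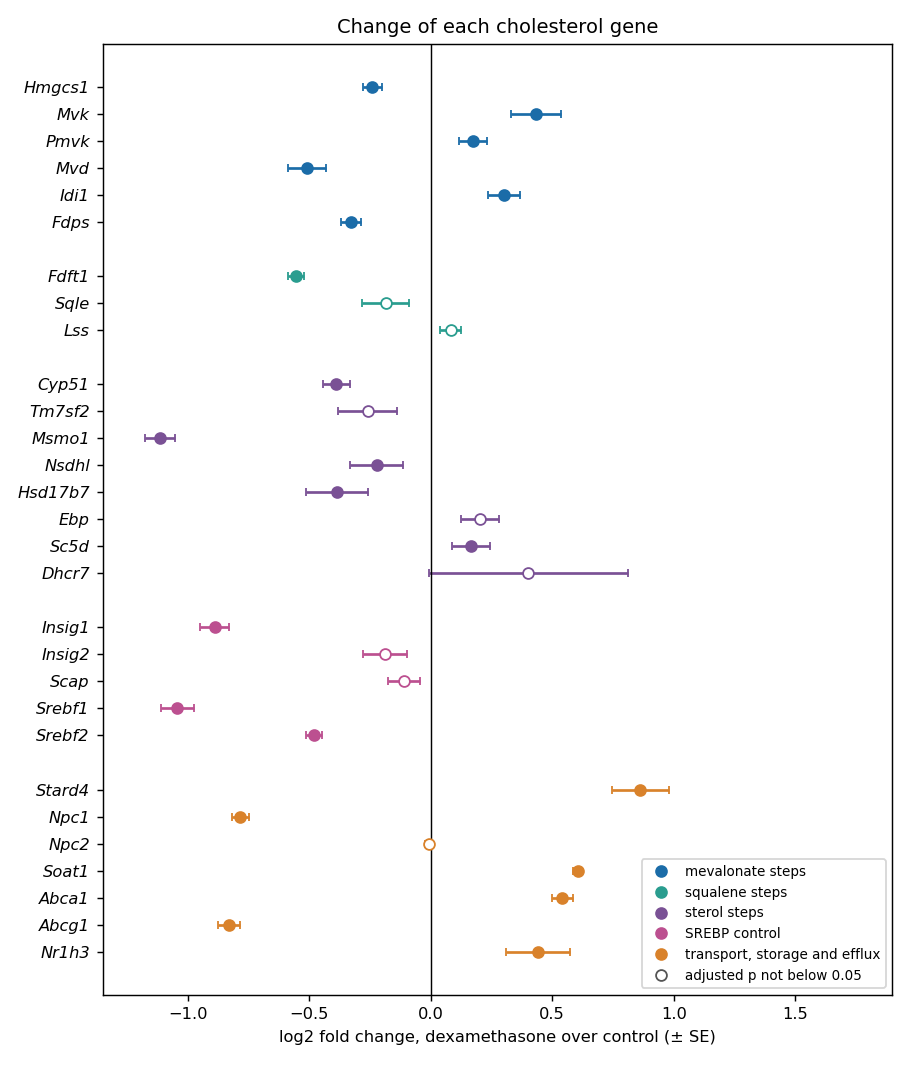
Log2 fold change ± SE, dexamethasone over control, of the 29 genes ordered by role, with open circles where the adjusted p was not below 0.05. The synthesis enzymes take both signs along the pathway, and transport genes spread from -0.83 (Abcg1) to 0.86 (Stard4). The 5 SREBP control genes lie left of 0, with Insig2 and Scap as open circles.

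Tested against a fold change of 1.5 in place of no change, 6 of the 29 passed: Msmo1, Srebf1, Insig1, Abcg1 and Npc1 lower and Stard4 higher. Of all 14111 genes tested, 20% passed this test. With the coefficient of variation between replicates set to 0.2, these 6 passed and so did Soat1 (adjusted p = 0.0422, edgeR), while the other 14 calls were lost. That setting called 26.2% of all genes tested. Counts near these shares are not a result about the cholesterol genes. The coefficient of variation estimated from these libraries was 3.66%.

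Levels were compared between genes as CPM per kilobase of exon. Npc2 stood first in both groups, at 79.0 ± 1.26 with dexamethasone and 79.4 ± 0.99 in the controls (SD, n = 3 each). After it came Soat1 (45.7), Pmvk (29.6) and Msmo1 (14.7 CPM per kilobase) with dexamethasone. In the controls the order was Msmo1 (31.9), Soat1 (30.0), Pmvk (26.2) and Insig1 (21.6 CPM per kilobase). The libraries of neighbours in these short orders did not overlap. Further down, 10 of the 28 neighbouring pairs overlapped with dexamethasone and 16 of 28 in the controls, for example Mvd and Mvk with dexamethasone and Npc1 and Cyp51 in the controls, so their order is not resolved. Hsd17b7, Tm7sf2 and Dhcr7 were the last 3 in both groups, at 0.835, 0.585 and 0.242 CPM per kilobase with dexamethasone and 1.09, 0.700 and 0.183 in the controls.

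Ratios of partner genes were taken within each library. Insig1 stood at 1.52 ± 0.092 times Insig2 per kilobase with dexamethasone and 2.48 ± 0.13 times in the controls (SD, n = 3 each). Srebf1 was 0.373 ± 0.017 of Srebf2 with dexamethasone and 0.550 ± 0.027 in the controls. The exporter ratio of Abca1 to Abcg1 was 3.50 ± 0.27 with dexamethasone and 1.35 ± 0.037 in the controls, and that of Npc1 to Npc2 was 0.120 ± 0.0014 with dexamethasone and 0.206 ± 0.0078 in the controls. The groups did not overlap for any of the 4 ratios, and each exact two-sided permutation test gave p = 0.1, the smallest that 3 against 3 libraries allow. The genes of all 4 pairs were chosen with earlier results of these data known, and the last 2 pairs after their values were seen. The ratios rest on the same counts as the single-gene calls.

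**Figure D4:**
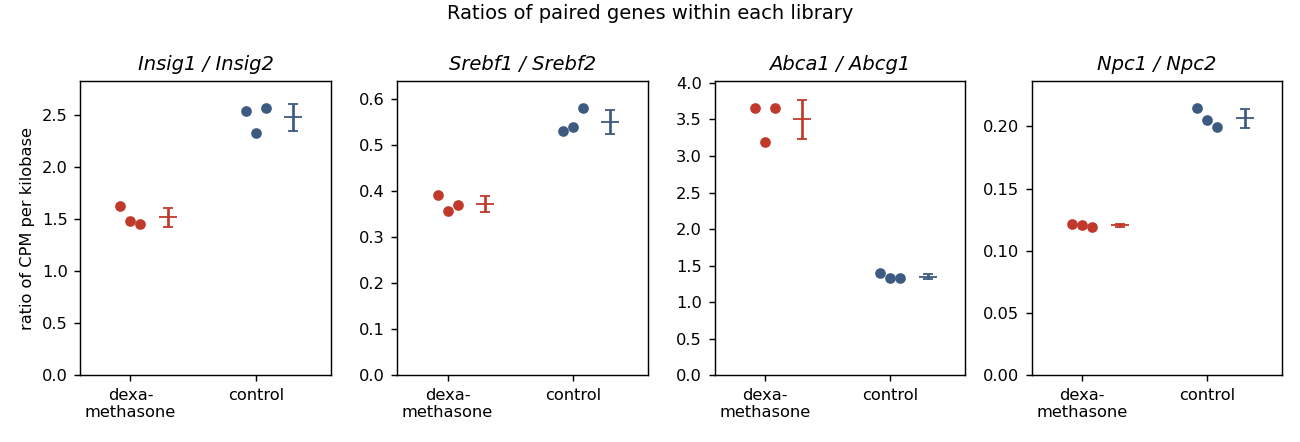
Ratio of CPM per kilobase of 4 gene pairs in each library, dexamethasone left and control right, with mean ± SD (n = 3) beside the points. The ratio is lower with dexamethasone for Insig1 to Insig2, Srebf1 to Srebf2 and Npc1 to Npc2, and higher for Abca1 to Abcg1 (3.19 to 3.66 against 1.33 to 1.40).

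A wider list of 50 other genes of sterol metabolism was read beside these. Of 48 in the table, 45 were tested, and 15 rose, 20 fell and 10 did not pass. Their median log2 fold change was -0.10. Called genes made up 77.8% of the 45 tested, against 64.0% of all genes tested. Among the 5 largest called rises at a mean of 5 CPM or more, Scarb1, a lipoprotein receptor for cholesterol esters, had 8.48, 8.31 and 9.31 CPM with dexamethasone, against 3.79, 3.70 and 2.62 CPM in the controls (log2 1.37 ± 0.18). Tmem97, a membrane protein that binds Npc1, rose by 1.05 on the log2 scale, and Rxra, a partner receptor of LXR, by 0.77. Acat1, a mitochondrial thiolase, rose by 0.72, and Lipa, the lysosomal lipase that frees cholesterol from its esters, by 0.70. Rxrb, the paralogue of Rxra in the wider list and not among these 5, fell (log2 -0.32 ± 0.048).

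The 5 largest falls by the same rule included a carrier and a receptor. Star, which delivers cholesterol to mitochondria for steroid synthesis, had 1.75, 1.87 and 1.72 CPM with dexamethasone, against 17.6, 19.2 and 20.4 CPM in the controls (log2 -3.42 ± 0.072). Vldlr, a lipoprotein receptor, had 11.7, 11.6 and 12.2 CPM with dexamethasone, against 49.0, 52.5 and 45.2 CPM in the controls (log2 -2.05 ± 0.066). Nceh1, a cholesterol ester hydrolase, Mylip, an LXR-induced ubiquitin ligase that acts on lipoprotein receptors, and Erlin1, a membrane protein that restrains SREBP, had log2 fold changes of -0.87, -0.81 and -0.75. The 10 genes picked by this rule had an adjusted p of 1.4e-10 or less by edgeR's quasi-likelihood test.

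All 8 listed cell cycle genes, among them Mki67, were called higher with dexamethasone, against 32.3% of all genes tested. They summed to 2067 to 2091 CPM with dexamethasone and 624 to 641 CPM in the controls. The part of cell division, and of the adipocyte markers given above, in the cholesterol gene values was not tested.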

How the data were processed

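The authors deposited read counts per gene for 6 libraries in 1 table, with exon positions and summed exon length, per the file headers. The sources used here do not give the aligner, counter, strand setting or treatment of reads shared between genes. The build was mm10, a mouse build, per the submitters' processing notes, but the table held rat symbols, and 17432 of its 30211 gene names were in RefSeq's rat table (GRCr8), all 29 members included. Coordinates are those of the table, whose rat build the sources used here do not name.

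Genes were filtered with filterByExpr by group (14111 kept), TMM-scaled, and fitted in edgeR 4.0.16 under R 4.3.3 by robust quasi-likelihood, dexamethasone against control, no covariate, Benjamini-Hochberg over all genes. A gene was called, and is said to have risen or fallen, at an adjusted p below 0.05. SEs came from the replicates' log2 CPM (prior count 2), and 95% intervals from these with 4 degrees of freedom. Low counts were mostly even (70.3% of values of 1 to 20), so counts may rest on fewer independent fragments than their totals. Only these low values were examined, so whether higher counts are affected was not tested. The fit was tested on counts simulated independently with the spread estimated from these libraries, which cannot speak to technical replicates or to the even counts. DESeq2 1.42.0, limma 3.58.1 (voom) and the settings in the closing section were alternatives.

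All 29 members were named, with 3 glucocorticoid targets and, of the wider list, the 5 largest called rises and falls with a mean of at least 5 CPM. The members and lists were chosen with earlier results of these data known. Some other genes of the pathway, and sequences, are not analysed here. No column belonged to another sample.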

Additional observations from a re-analysis of the deposited data

How the results depend on the processing

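Of the 29 cholesterol genes, 8 rose and 13 fell. RLE size factors, no filter on low counts, limma-voom and the replicate block each gave 8 and 13, library size alone gave 8 and 12, and DESeq2 gave 7 and 13. With the coefficient of variation set to 0.2, 2 rose and 5 fell, with 7 and 7 of the wider list. That setting called 3693 genes in all (26.2% of genes tested), against 9027 (64.0%). Tested against a fold of 1.5, 1 rose and 5 fell, with 5 and 7 of the wider list and 2827 in all (20%). Leaving out each library in turn gave 7 to 8 rises and 11 to 14 falls, 13 to 15 and 19 to 21 in the wider list, and 8525 to 8700 genes in all. Npc2, not called in any setting, changed sign with library size alone (log2 0.0326), without the filter (5e-04), and over left-out libraries (-0.012 to 0.0117). The cause was not tested. Library size alone moved the median of all genes to 0.04. Deviations of same-numbered libraries correlated at 0.00264, -0.00784 and 0.0203, so no shared deviation was seen. This cannot tell whether the samples were paired, since a small shared effect would look the same. The replicate block called 8991 genes. Dhcr7 had the fewest counts of the 29 (78 with dexamethasone and 59 in the controls), and its direction is not resolved.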
